A study of Mus musculus with 12 samples.

Results

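Genes for the Z-disc, titin and the thick filament were followed in whole embryonic hearts of mice in which the histone chaperone gene Hira was deleted with Mesp1Cre. The group was set by name and not by any measured value. It takes sarcomere genes other than the actins, myosins and troponins, and its 36 members were all found among the 20368 genes of the deposited table. RNA was sequenced from CD1 hearts at E11.5 and E12.5. At each stage there were 3 Cre control libraries, of genotype Mesp1Cre;Hira+/fl, and 3 mutant libraries, of genotype Mesp1Cre;Hira-/fl. Controls thus carried the same Cre driver and 1 floxed allele, while mutants carried a null allele beside the floxed one. Mesp1Cre recombines in early mesoderm that forms the myocardium, the endocardium and the epicardium, so neural crest cells and circulating cells of the heart are mostly not targeted.

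A sarcomere is built from thin actin filaments, anchored at the Z-disc, and thick myosin filaments, cross-linked at the M-band. Titin runs from the Z-disc to the M-band and sets the place of the thick filament. In the embryonic heart these proteins are made before and during the assembly of the first striated myofibrils, and the same genes include sensors of stretch and ligases that turn the filaments over.

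The libraries held 11994148 to 17483982 counts each. The 16 cardiomyocyte markers, with Myh7, Actc1 and Myl2 in front, summed to between 30033 and 40440 CPM (counts scaled by TMM-scaled library size and not by gene length) in all 12 libraries. Hira itself had 15.1 to 19 RPKM (counts scaled by gene length and library size) in E11.5 controls and 12.6 to 16.3 in E11.5 mutants, and 13.4 to 19.1 against 15.5 to 17.6 at E12.5. The count covers the whole gene and not the floxed part alone, so it does not check the genotype labels. By Y-linked counts all 3 E11.5 controls were male, while each other group had 1 male and 2 female hearts. Libraries also differed in how long and short genes were represented. A length index was taken for each library as the median log2 deviation of 914 genes of at least 6000 bases minus that of 1616 genes under 1500 bases. It was -0.30, 0.01 and -0.48 in E11.5 controls and 0.16, 0.09 and -0.73 in E11.5 mutants. It was 0.49, 0.27 and 0.14 in E12.5 controls and 0.14, 0.06 and 0.12 in E12.5 mutants. The index therefore separated the control groups of both stages without overlap. At E12.5 it was 0.14 or more in controls and 0.14 or less in mutants. Its values are given beside the results they move with.

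Counts were tested with edgeR's quasi-likelihood test over all genes of at least 0.5 RPKM on average. A gene is named as called, risen or fallen where its Benjamini-Hochberg adjusted p was at most 0.05 and its fold change at least 1.5. Whole hearts were sequenced, so fewer cells of a type and less RNA per cell cannot be told apart.

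Promoters of 5 members are shown first. Nrap and Cmya5 were called between the stages in control hearts, and Ldb3, Myom1 and Trim63 passed the adjusted p there with a smaller fold, a choice made after their values were seen. Each is the 250 bases before the RefSeq start on GRCm38.p6, written 5′ to 3′ on the gene's strand. Capitals mark matches on either strand to the CArG box of serum response factor, to GGAATG, the core of the TEAD site, and to GATAA, bound by GATA factors.
Nrap, chr19:56390039-56390288, minus strand: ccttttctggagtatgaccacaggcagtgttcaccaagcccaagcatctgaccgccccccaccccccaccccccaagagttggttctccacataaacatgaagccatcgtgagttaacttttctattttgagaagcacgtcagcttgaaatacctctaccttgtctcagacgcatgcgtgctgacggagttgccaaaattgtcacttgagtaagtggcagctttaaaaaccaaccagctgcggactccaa
Cmya5, chr13:93144725-93144974, minus strand: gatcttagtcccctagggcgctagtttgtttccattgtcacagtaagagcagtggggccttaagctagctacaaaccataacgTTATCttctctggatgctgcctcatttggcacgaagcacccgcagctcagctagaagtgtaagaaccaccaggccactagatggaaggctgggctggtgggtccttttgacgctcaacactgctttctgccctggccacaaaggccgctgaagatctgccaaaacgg
Ldb3, chr14:34588682-34588931, minus strand: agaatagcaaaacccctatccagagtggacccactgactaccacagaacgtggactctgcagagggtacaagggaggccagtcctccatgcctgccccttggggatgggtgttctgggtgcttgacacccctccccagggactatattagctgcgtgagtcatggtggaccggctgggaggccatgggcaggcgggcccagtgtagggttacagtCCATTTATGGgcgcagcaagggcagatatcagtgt
Myom1, chr17:71019307-71019556, plus strand: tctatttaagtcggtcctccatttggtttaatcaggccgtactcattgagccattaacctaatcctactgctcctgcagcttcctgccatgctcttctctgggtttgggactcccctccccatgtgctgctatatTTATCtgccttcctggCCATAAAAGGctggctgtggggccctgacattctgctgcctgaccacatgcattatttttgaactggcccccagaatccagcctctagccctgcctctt
Trim63, chr4:134314870-134315119, plus strand: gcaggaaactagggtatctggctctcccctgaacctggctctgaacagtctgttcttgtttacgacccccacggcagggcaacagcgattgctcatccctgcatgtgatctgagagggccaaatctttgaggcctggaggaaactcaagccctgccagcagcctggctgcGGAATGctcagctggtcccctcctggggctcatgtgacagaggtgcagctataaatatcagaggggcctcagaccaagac

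The Ldb3 window held a CArG box, Myom1 a CArG box and a GATAA match, Trim63 a GGAATG match and Cmya5 a GATAA match. The Nrap window held none of these letters. Neither GAGAGAGA nor the MEF2 box occurred in these windows. Promoter windows were listed for 29 of the 36 genes, 39 windows in all. Myom2, Trim55, Tcap, Cryab, Nexn, Xirp1 and Neb had no entry. A CArG box was found for Fhl2, Ldb3, Myom1 and Nebl, in 6 of the 39 windows (15.4%), against 1.47% of all 32851 promoter windows. A MEF2 box was found for Fhl2, Mybpc3, Myoz2, Synpo2l, Ttn and Xirp2, in 7 windows (17.9%), against 2.92% of all. GGAATG was in 17.9% of member windows and 12.6% of all, and GATAA in 35.9% and 22.6%. GAGAGAGA was in 1 member window, that of Nebl (2.56%), against 3.26% of all. Windows of 1 gene can overlap, and a match is a description of letters only.

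Levels spread over more than 3 orders of magnitude. In E12.5 controls the mean level ran from 0.126 RPKM for Xirp2 to 790 RPKM for Tpm1, with a median over the 36 genes of 81.4 RPKM against 11.9 over all genes tested. Of the 36, 15 were above 100 RPKM and 4 were below 5. The most abundant were Tpm1, the cardiac tropomyosin, Csrp3, the muscle LIM protein of the Z-disc, Mybpc3, cardiac myosin binding protein C, Actn2, the actin cross-linker of the Z-disc, and Ankrd1, a stretch-sensitive repeat protein that binds titin. The 4 lowest were Cmya5, a desmin and titin partner, and Myom2, Neb and Xirp2, which are better known from mature heart or skeletal muscle. All members together took 1.56% to 1.88% of the counts of a library.

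**Figure D1:**
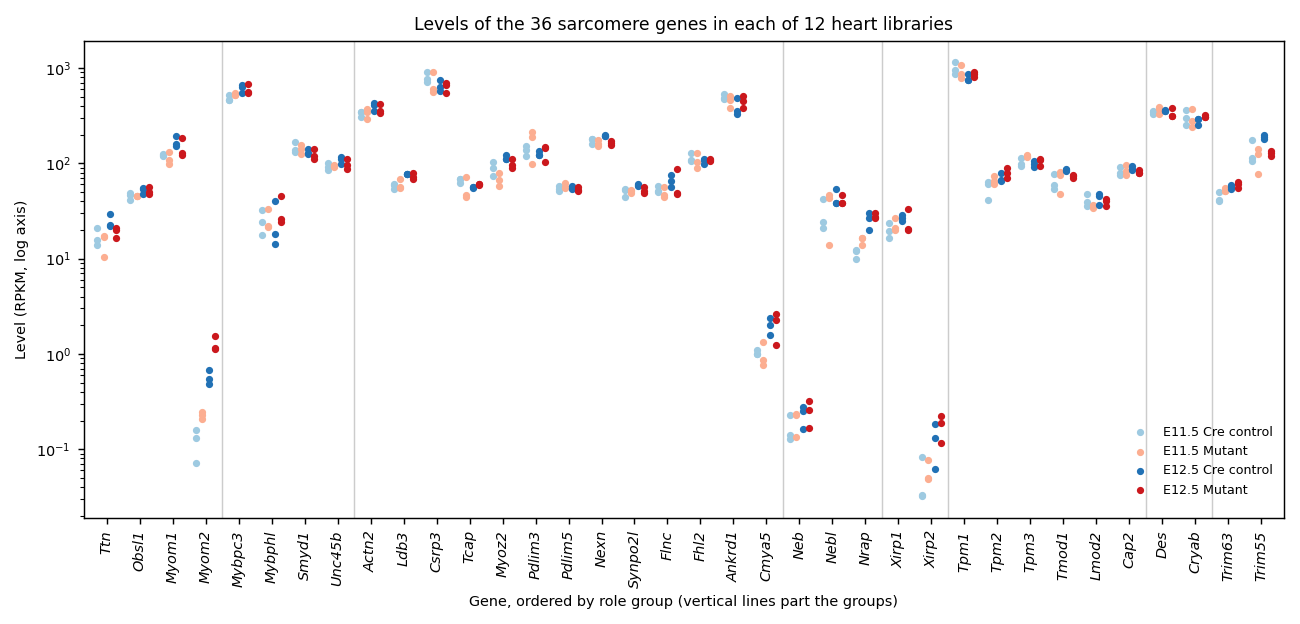
Level of each of the 36 genes in RPKM (log axis) in every library, with 3 points for each group and genes ordered by role. Tpm1, Csrp3, Mybpc3, Actn2 and Ankrd1 lie at the top, and Cmya5, Myom2, Neb and Xirp2 lie below 5 RPKM in E12.5 controls.

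At E11.5 none of the 33 members tested was called between mutants and controls, where 0.115% of all genes were (14 of 12197). By an unadjusted p under 0.05 there were 2, Nrap and Myoz2, where 10.3% of all genes had such a p, and DESeq2 called 0 members. The median log2 fold change of the 33 was 0.01, against -0.01 over all genes tested, with 17 above and 16 below 0. The 95% interval lay within 1.5-fold either way for 21 members and within 2-fold for 32. Groups did not overlap for 4 of the members tested, Mybpc3, Nrap, Tpm3 and Trim63, all higher in mutants, where 16.3% of all genes did not overlap.

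Nrap, a nebulin-related anchor of the first actin bundles, had the largest log2 fold change of the 33 genes tested at E11.5. Its level was 12.2, 11.9 and 10 RPKM in controls and 16.5, 16.6 and 13.8 in mutants. All mutants were above all controls, yet the log2 fold change of 0.46 ± 0.13 (SE) had an adjusted p of 0.249. Myoz2, a Z-disc protein that binds calcineurin, was the other. Its level was 89.9, 74 and 103 RPKM in controls and 58.2, 66.3 and 78.8 in mutants, so the groups overlapped in 1 pair of libraries. The log2 fold change was -0.40 ± 0.16 (adjusted p = 0.454).

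Tcap, which caps the titin ends in the Z-disc, had 68.1, 62.4 and 68.5 RPKM in E11.5 controls and 44.4, 47 and 72.4 in mutants. Mutant 3 was the highest of the 6 libraries and the others were the lowest, and the log2 fold change was -0.28 ± 0.19 (adjusted p = 0.716). With sex as a covariate this value turned to 0.13. Pdlim3, a PDZ-LIM protein of the Z-disc, had 137, 152 and 120 RPKM in controls and 187, 98.8 and 211 in mutants, with mutant libraries on both sides of the controls. Its log2 fold change was 0.28 ± 0.25 (adjusted p = 0.823). Tpm2, a second tropomyosin, had 60.6, 64 and 40.7 RPKM in controls and 60.6, 73.5 and 65.8 in mutants, a log2 fold change of 0.28 ± 0.18 (adjusted p = 0.708). Control 3 was the lowest of the 6 libraries.

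At E12.5 the members again stayed close to controls, with 1 exception in each direction. Myom2 rose 2.28-fold in mutants, and Trim55 passed the adjusted p with a decrease below the fold threshold. Of the 34 members tested, 1 was called (3.03% of all genes, 371 of 12256) and 2 passed the adjusted p at any fold (5.12% of all genes). The median log2 fold change was -0.04, with 21 members below 0 and 13 above, against a median of 0.00 over all genes tested, of which 50.4% were below 0. The 95% interval lay within 1.5-fold for 30 members. Groups did not overlap for 9 of the members tested, where 26.4% of all genes did not overlap. Ttn, Nexn, Synpo2l, Tmod1, Cap2 and Trim55 were lower in every mutant, and Myom2, Tcap and Cryab were higher.

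**Figure D2:**
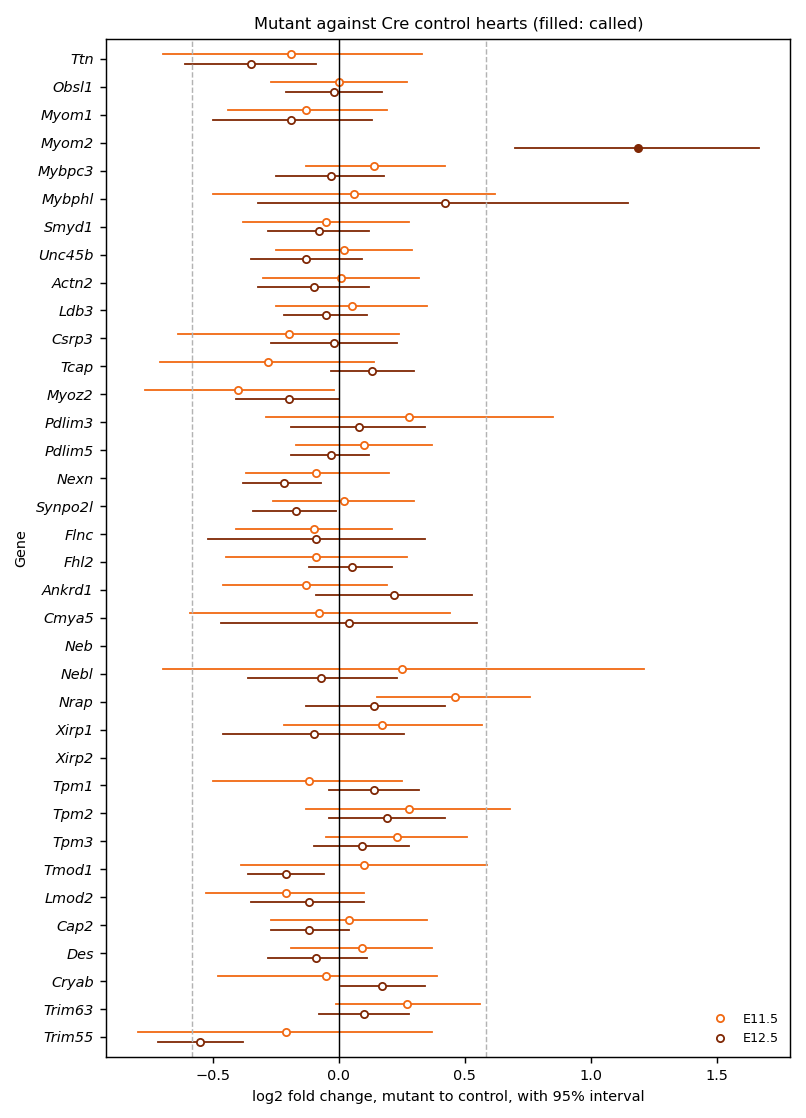
Log2 fold change of mutant to Cre control hearts for each gene at E11.5 and E12.5, with 95% intervals from the edgeR fit, filled where called and with dashed lines at 1.5-fold. Myom2 at E12.5 is the 1 filled point, and the interval of Trim55 at E12.5 lies wholly below 0.

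Myom2 encodes myomesin 2, the M-band cross-linker of adult heart and fast skeletal muscle (chr8:15057653-15133541, mm10). It was a gene of low counts. There were 12, 10 and 5 counts in E11.5 controls and 16, 20 and 13 in E11.5 mutants, where it was below the filter and not tested. At E12.5 there were 41, 42 and 54 counts in controls and 84, 98 and 116 in mutants. In RPKM these were 0.546, 0.478 and 0.67 against 1.13, 1.15 and 1.53, and no mutant overlapped a control at either stage. At E12.5 this was a log2 fold change of 1.19 ± 0.22 (adjusted p = 0.0139). Over both stages the fitted value was 1.08 ± 0.20 (adjusted p = 0.00544). There Myom2 passed the filter through the E12.5 mutants, at a mean of 1.27 RPKM against 0.12 to 0.565 in the other groups, and without any 1 of those 3 mutants it was not tested. The call at E12.5 was lost without control 1 (adjusted p = 0.0574) or control 2 (adjusted p = 0.0562), and with the length index as a covariate (1.08, adjusted p = 0.172). Its partner Myom1, the myomesin of embryonic hearts, was far more abundant, at 192, 158 and 150 RPKM in E12.5 controls and 122, 129 and 183 in mutants. For Myom1 the log2 fold change was -0.19 ± 0.14 (adjusted p = 0.486).

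Markers of skeletal muscle were counted beside Myom2. The 21 genes of that list summed to 134, 157 and 313 CPM in E12.5 controls and 293, 295 and 386 in mutants. Myl1, which the embryonic heart also makes, gave 46.4, 61.6 and 203 CPM of this in controls and 201, 207 and 295 in mutants. In controls 1 and 2 Ckm was higher than Myl1. Of the 8 genes tested none was called, with 5 above 0 and 3 below. Among them Ckm, muscle creatine kinase, was lower in every mutant, at 63.6, 68.9 and 67.6 CPM in controls and 60.8, 39.6 and 44.6 in mutants (log2 fold change -0.45, adjusted p = 0.0774). Myog and Myl1 went the other way, with log2 fold changes of 1.23 (adjusted p = 0.129) and 1.19 (adjusted p = 0.133). The defining factor Myod1 was at 0 to 0.226 CPM in controls and 0.268 to 0.992 in mutants, and Myog was at 0.553 to 0.677 and 0.803 to 2.28. Ryr1 and Myh3, under the filter, were also higher in every mutant, while Myh1, Myh2 and Myh8 overlapped. The part of these transcripts in the Myom2 values was not tested.

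Trim55 encodes MuRF2, a ubiquitin ligase that binds titin at the M-band and microtubules (chr3:19644460-19691599, mm10). Its level was 200, 180 and 187 RPKM in E12.5 controls and 120, 136 and 128 in mutants. Every mutant lay below every control, by more than the range of either group. The log2 fold change was -0.55 ± 0.08, which is 0.683-fold (adjusted p = 0.00432), the lowest adjusted p of the 34 members. At E11.5 controls had 113, 177 and 106 RPKM and mutants 124, 142 and 76.8, which overlapped. With the length index in the fit the E12.5 value was -0.51 and its adjusted p 0.0506. Over 17 alternatives the E12.5 value ran from -0.60 to -0.51 and its adjusted p from 1.4e-08 to 0.267. Its relative Trim63, MuRF1, had 59.6, 56.4 and 53.2 RPKM in controls and 64.3, 54.5 and 61 in mutants at E12.5. For Trim63 the log2 fold change was 0.10 ± 0.08 (adjusted p = 0.519).

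Ttn, the gene for titin, had 29.4, 22.7 and 22.1 RPKM in E12.5 controls and 16.6, 20 and 21.1 in mutants, so that the highest mutant was just below the lowest control. The log2 fold change was -0.35 ± 0.12 (adjusted p = 0.116). Ttn is the longest member at 104320 bases, and the control with the highest Ttn also had the highest length index. Among the mutants the order differed, as mutant 1 had the highest index, 0.14, and the lowest Ttn. With that index as a covariate the value was -0.14 (adjusted p = 0.783). Nexn, an actin-binding Z-disc protein, had 192, 196 and 193 RPKM in controls and 156, 163 and 173 in mutants, which did not overlap. Its log2 fold change was -0.22 ± 0.07 (adjusted p = 0.0885). Mybphl, a myosin binding protein of atrial muscle, had 18.1, 14.1 and 39.8 RPKM in controls and 26.1, 24.4 and 45 in mutants. Its log2 fold change of 0.42 ± 0.33 had an adjusted p of 0.513. Control 3 and mutant 3 were high, and the same libraries had the highest sum of the 9 atrial markers in their groups, 5300 and 6426 CPM. Of these markers, Nppa and Kcnj3 were highest in control 1 among controls, and Nr2f2 was lowest in mutant 3 among mutants. The part of atrial tissue in the Mybphl values was not tested. Without control 3 Mybphl was called as higher in mutants (adjusted p = 0.0386).

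The abundant members differed little at E12.5. Tpm1 had 741, 754 and 873 RPKM in controls and 812, 899 and 874 in mutants (log2 fold change 0.14 ± 0.08, adjusted p = 0.361). Csrp3 had 580, 628 and 743 RPKM in controls and 540, 663 and 701 in mutants (-0.02 ± 0.11, adjusted p = 0.932). Mybpc3 had 625, 666 and 544 RPKM in controls and 560, 543 and 672 in mutants (-0.03 ± 0.10, adjusted p = 0.873). These 3 genes overlapped between genotypes. Actn2 had 410, 429 and 354 RPKM in controls and 350, 333 and 420 in mutants (-0.10 ± 0.10, adjusted p = 0.61). Ankrd1 had 327, 353 and 481 RPKM in controls and 380, 446 and 509 in mutants (0.22 ± 0.14, adjusted p = 0.418). The 95% interval of Actn2 was -0.32 to 0.12 and that of Ankrd1 -0.09 to 0.53 on the log2 scale. Under at least 1 alternative setting the sign turned for Csrp3, Mybpc3, Actn2 and Ankrd1, and under none for Tpm1.

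**Figure D3:**
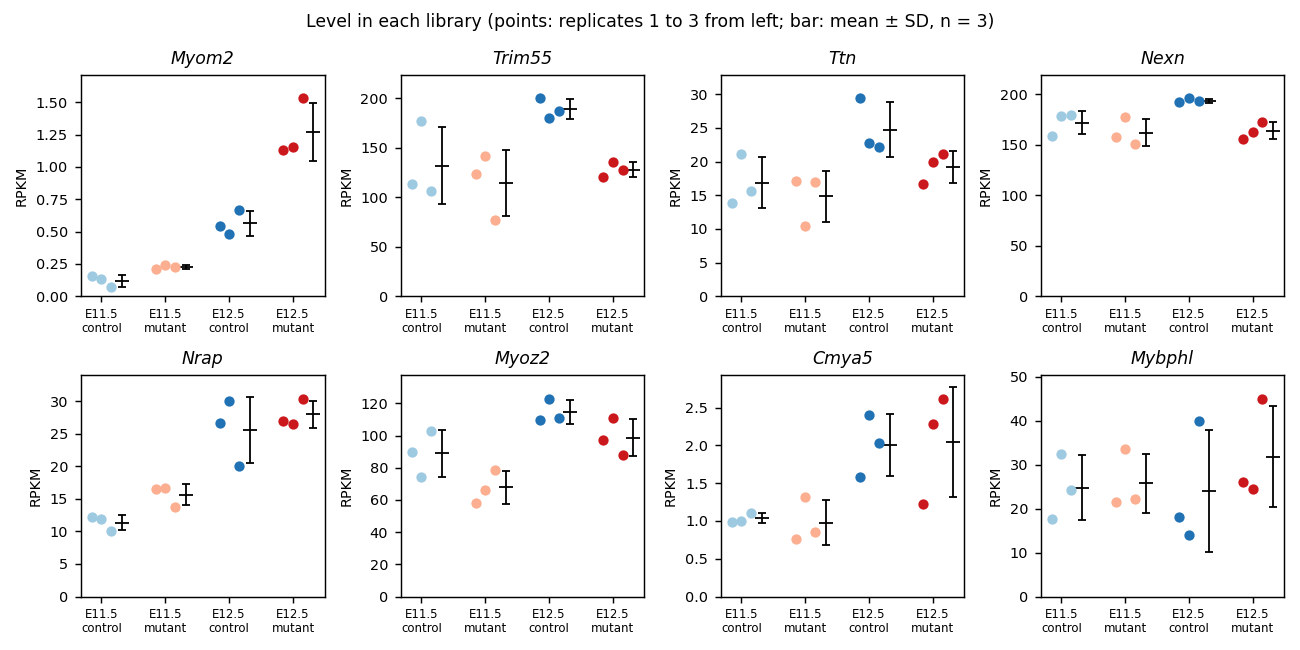
Level in RPKM of 8 genes in every library (linear axis from 0), with 3 points a group from replicate 1 on the left and the mean ± SD beside them. At E12.5 the mutants are above the controls for Myom2 and below them for Trim55, Ttn and Nexn, and both genotypes are higher at E12.5 than at E11.5 for Nrap and Myom2.

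The remaining members are given by role. Of the thick filament genes, Smyd1, a methyltransferase, and Unc45b, a chaperone, both of which act in myosin folding and assembly, had log2 fold changes of -0.08 and -0.13 at E12.5. Obsl1, an M-band and cytoskeletal linker, was at -0.02. Among the Z-disc genes, Ldb3, a PDZ-LIM protein that holds the disc together, was at -0.05, Pdlim5 at -0.03, Fhl2 at 0.05, and the actin cross-linker Flnc at -0.09. Synpo2l, a synaptopodin of the Z-disc, was at -0.17 with an unadjusted p of 0.0443 and an adjusted p of 0.22. Of the nebulin and Xin families, Nebl was at -0.07 and Xirp1 at -0.10, while Neb (0.129 to 0.319 RPKM) and Xirp2 (0.0324 to 0.224 RPKM) were under the filter in all comparisons. Of the thin filament genes, Tmod1, which caps the pointed end, was at -0.21 with an adjusted p of 0.106, Lmod2, which lengthens it, at -0.12, Cap2 at -0.12, and Tpm3 at 0.09. The intermediate filament gene Des was at -0.09 and its chaperone Cryab at 0.17. None of these passed the adjusted p.

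Both stages were then fitted together with stage as a covariate. Myom2 was the 1 of 34 members called (3.19% of all genes, 391 of 12270), and also the 1 that passed the adjusted p at any fold (6.82% of all genes). The next by unadjusted p were Myoz2, Nrap, Trim55 and Nexn. Myoz2 was at -0.31 ± 0.10 (adjusted p = 0.0806), and its E12.5 levels were 110, 123 and 111 RPKM in controls and 97, 111 and 88.2 in mutants, lower on average at both stages. Nrap was at 0.29 ± 0.11 (adjusted p = 0.126), Trim55 at -0.39 ± 0.15 (adjusted p = 0.162) and Nexn at -0.16 ± 0.07 (adjusted p = 0.173). When the length index was added as a covariate, a choice made after the data were seen, the values were -0.33 for Myoz2 (adjusted p = 0.00503), 0.31 for Nrap (adjusted p = 0.0263) and -0.34 for Trim55 (adjusted p = 0.00977). These 3 then passed the adjusted p with Myom2, each by less than 1.5-fold. With sex as a covariate Trim55 also passed, at -0.52 (adjusted p = 0.0473). No member had a mutant effect that differed between the stages, where 0% of all genes were called by edgeR. None of the 34 had an unadjusted p under 0.05 in that test, and DESeq2 called 0 members and 43 genes.

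The summed level of the 36 genes was 15970 to 16752 CPM in E11.5 controls and 15452 to 17000 in E11.5 mutants. At E12.5 it was 18645, 17997 and 17678 CPM in controls and 15817, 16800 and 18864 in mutants. Mutant 3 was the highest of these 6 libraries and the other two mutants were the lowest. The same mutant had the highest sum of cardiomyocyte markers of all libraries, 40440 CPM, and the highest Flnc of all, 86.5 RPKM against 48.8 and 48 in the other mutants.

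Other cell types of the heart moved with genotype at E12.5. The 13 erythroid markers found summed to 4214 to 6818 CPM in E12.5 controls and 2247 to 2999 in mutants, and 8 of 13 fell, where 3.03% of all genes were called. The 10 macrophage markers summed to 104 to 134 CPM in controls and 59.7 to 77.4 in mutants, and 4 of the 8 tested fell. The 10 cushion mesenchyme markers summed to 5056 to 6038 CPM in controls and 4334 to 4833 in mutants, all 10 had values below 0, and 4 passed the adjusted p at any fold, of which Postn was called. Of the 9 genes of the epicardium and mesothelium list Krt19 and Msln rose, and none of the others passed the adjusted p. That list summed to 445 to 644 CPM in controls and 622 to 685 in mutants, which overlapped. At E11.5 the macrophage sum was 73.4 to 131 CPM in controls and 32 to 38.9 in mutants, with C1qb called as lower. The cushion mesenchyme sum was 4469 to 5011 CPM in E11.5 controls and 2849 to 3933 in mutants, and the epicardium and mesothelium sum 653 to 972 and 538 to 646. All 10 endothelial and endocardial markers had values above 0 at E11.5, and no marker of these 3 lists or the erythroid list was called then. Over both stages Postn, Col1a2, Lum and Dcn of the cushion list fell, as did the macrophage markers Csf1r, Cx3cr1, Adgre1 and Lyz2. Krt19 rose in that fit, with the endothelial and endocardial marker Nfatc1 (0.60, adjusted p = 0.00953) and the liver marker Alb. In it 3.19% of all genes were called. Alb had 277 counts in E12.5 mutant 1 and at most 16 in any other library. At E12.5 none of the 16 cardiomyocyte, 9 atrial, 5 ventricular, 6 tested smooth muscle, 10 endothelial or 6 tested liver markers was called. The part of these shifts in the values of the sarcomere genes was not tested.

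Related genes were taken from 3 lists. Of 32 other Z-disc, M-band and thin filament genes tested at E12.5, 1 was called. It was Lmod3, a leiomodin of skeletal muscle, at 8.41, 11.8 and 10.2 RPKM in controls and 15.3, 17.1 and 21.7 in mutants. Every mutant was above every control, with a log2 fold change of 0.84 ± 0.15 (adjusted p = 0.0108). Lmod2, the cardiac leiomodin among the members, had 47.5, 36.8 and 45.3 RPKM in controls and 35.9, 41.9 and 39.9 in mutants. Lmod3 was also called over both stages, at 0.83 ± 0.11 (adjusted p = 0.00059). None of 15 sarcomere chaperone and turnover genes and none of 15 tested transcription factors of sarcomere genes was called. In these lists 4 and 3 genes had an unadjusted p under 0.05, where 21.3% of all genes did. At any fold the adjusted p was passed at E12.5 by 2, 1 and 0 genes of the 3 lists, in that order (5.12% of all genes). Over both stages 3 of the 15 chaperone and turnover genes passed it (6.82% of all genes). At E11.5 no gene of these lists was called.

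The next comparison asked how the sarcomere genes changed over 1 day of normal growth. In control hearts 2 of the 33 members tested rose and none fell, where 5.31% of all genes were called (650 of 12250). At any fold 5 passed the adjusted p, Nrap, Cmya5, Ldb3, Myom1 and Trim63, all higher at E12.5 (11.3% of all genes). The median log2 change of the members was 0.24 against 0.01 over all genes tested, with 23 of 33 above 0. Groups did not overlap for 17 of the members tested, 16 of them higher at E12.5, where 37.4% of all genes did not overlap. This comparison shares its E12.5 libraries with the E12.5 comparison of genotypes, and its E11.5 libraries with that at E11.5.

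Nrap (chr19:56320035-56390037, mm10) rose from 12.2, 11.9 and 10 RPKM at E11.5 to 26.7, 30 and 20.1 at E12.5 in controls. The log2 change was 1.17 ± 0.15 with an adjusted p of 0.00507. Cmya5 (chr13:93040713-93144724, mm10) rose from 0.993, 1 and 1.11 RPKM to 1.58, 2.4 and 2.03, a log2 change of 0.96 ± 0.16 with an adjusted p of 0.0138. Neither group of libraries overlapped the other for these genes. Ldb3 went from 61.3, 59.2 and 54.2 RPKM to 77.4, 77.8 and 76.7 (0.41 ± 0.09, adjusted p = 0.0286). Myom1 went from 121, 120 and 126 RPKM to 192, 158 and 150 (0.44 ± 0.11, adjusted p = 0.0339). Trim63 went from 39.8, 49.6 and 41.2 RPKM to 59.6, 56.4 and 53.2 (0.37 ± 0.11, adjusted p = 0.0489). All 3 were below 1.5-fold. Of the 10 members with values below 0 none passed the test, and the lowest were Ankrd1 at -0.36, Tpm1 at -0.32, Csrp3 at -0.28 and Tcap at -0.25.

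These control stages differed in length index and in sex as well as in age, and the 3 cannot be told apart fully here. With sex as a covariate none of the members was called, and Nrap was at 0.82 (adjusted p = 0.105) and Cmya5 at 0.98 (adjusted p = 0.204). With the length index as a covariate none was called either, and Nrap was at 0.84 (adjusted p = 0.466) and Cmya5 at 1.29 (adjusted p = 0.191). The rise of Ttn, 0.55 ± 0.16 (adjusted p = 0.0534), became -0.02 in that fit, and that of Trim55 went from 0.52 to -0.07. Without E11.5 control 2, the E11.5 control with the highest index, 6 members were called, Ttn, Tmod1, Trim55 and Nebl beside Nrap and Cmya5. Without E12.5 control 2, Nrap alone was called. The 9 members of at least 4000 bases and 5 RPKM had a median deviation of -0.24 in E11.5 control 3 and 0.31 in E12.5 control 1, while the 11 members under 2000 bases had 0.19 and -0.14. Not all libraries followed the index. E11.5 mutant 1, of index 0.16, had -0.14 for the long and -0.22 for the short members. E12.5 mutant 3, of index 0.12, had 0.29 and 0.04. Trim55, at 1787 bases, was itself a short member.

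**Figure D4:**
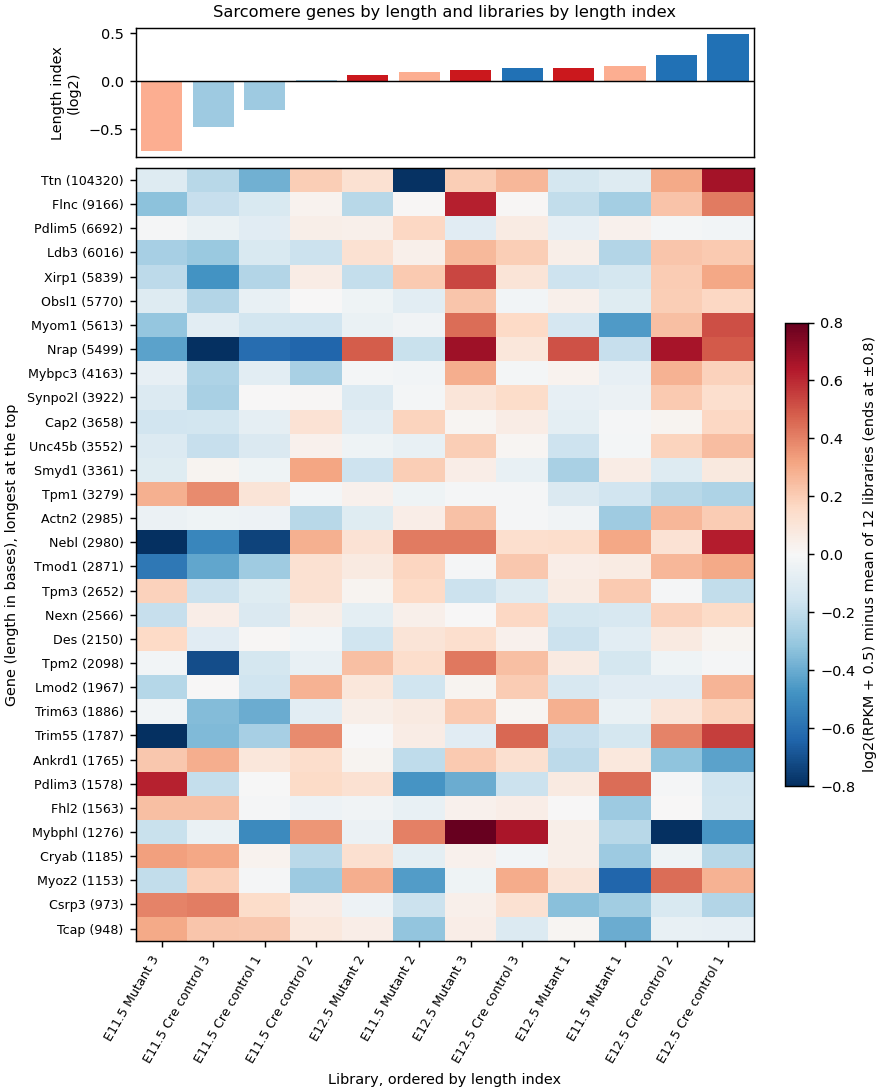
Top, length index of each library (log2), coloured by group as pale blue E11.5 control, pale red E11.5 mutant, dark blue E12.5 control and dark red E12.5 mutant. Below, the deviation of each gene of at least 5 RPKM from its mean over 12 libraries on the log2(RPKM + 0.5) scale, genes ordered by length and libraries by index. Libraries of low index show low Nebl, Tmod1 and Trim55 and high Csrp3, Tcap and Cryab.

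In mutant hearts the same step from E11.5 to E12.5 called 2 of 34 members, both higher at E12.5, where 0.523% of all genes were called (64 of 12237). Nrap rose from 16.5, 16.6 and 13.8 RPKM to 27, 26.5 and 30.4, a log2 change of 0.85 ± 0.12 (adjusted p = 0.0263). Myom2 rose from 0.207, 0.245 and 0.226 RPKM to 1.13, 1.15 and 1.53, a log2 change of 2.49 ± 0.26 (adjusted p = 0.00875). Here too it passed the filter through the E12.5 mutants. In controls it was under the filter and not tested, with 0.158, 0.13 and 0.0708 RPKM at E11.5 and 0.546, 0.478 and 0.67 at E12.5, which did not overlap. Groups did not overlap for 7 of the members tested, where 17.4% of all genes did not overlap. With the length index as a covariate both stayed called, at 0.76 for Nrap (adjusted p = 0.00587) and 2.48 for Myom2 (adjusted p = 0.00753). The call of Nrap was lost on leaving out any mutant library but E11.5 mutant 3, with adjusted p from 0.0534 to 0.141. That of Myom2 was lost without E12.5 mutant 2 (adjusted p = 0.0748) or E12.5 mutant 3 (adjusted p = 0.0534). Cmya5 had 0.758, 1.32 and 0.857 RPKM at E11.5 and 1.23, 2.29 and 2.62 at E12.5, with a log2 change of 1.07 ± 0.30 and an adjusted p of 0.261. The genotype groups thus gave log2 changes of 1.17 and 0.85 for Nrap and of 0.96 and 1.07 for Cmya5, and neither difference passed its test (adjusted p = 0.954 and 0.973).

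**Figure D5:**
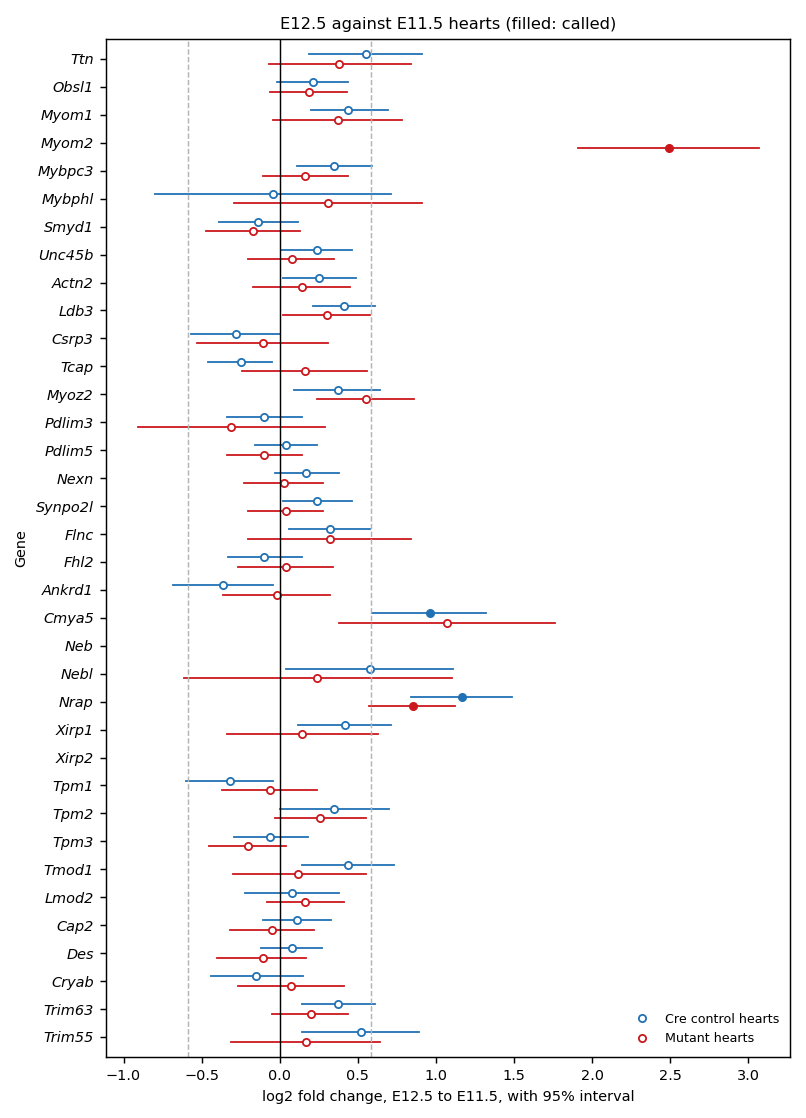
Log2 fold change of E12.5 to E11.5 hearts for each gene in Cre controls and in mutants, with 95% intervals from the edgeR fit, filled where called and with dashed lines at 1.5-fold. Nrap is filled in both genotypes, Cmya5 in controls and Myom2 in mutants, and Myom2 has no point in controls because it was not tested there.

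In the GENCODE annotation, exons of 10 members overlap those of another gene on the opposite strand, among them Ttn, Nrap, Cmya5, Tmod1, Des and Cryab. Strand use in counting is not given in the sources used here, so reads of such partners cannot be told apart from those of the members.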

How the data were processed

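Hearts were dissected and frozen during genotyping, RNA was extracted with a QIAGEN kit, and libraries were sequenced on an Illumina instrument. Bowtie2 version 2, the mm10 build and DESeq are named in the submitters' processing notes. The counting program, annotation and strand setting are not given in the sources used here. The deposited table is named RPKM, but its values were found to be a whole count times the gene length times a library factor, and so they are treated as a score, a unit that the authors' headers do not describe. A further deposited table for each stage held group averages of the authors' expected counts beside fold changes and p-values, which were not used. Counts were recovered from these tables for 19424 genes, of which 17827 had reads, each within 4.95e-10 of a whole number. The libraries held 11994148 to 17483982 counts. For a gene of few counts, such as Myom2, counting error is part of the spread.

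Counts were tested in R 4.3.3 with edgeR 4.0.16, using TMM scaling, a mean of at least 0.5 RPKM, and the quasi-likelihood test with Benjamini-Hochberg adjustment over all genes. Each stage, and each genotype across stages, was fitted on its own libraries. A fit of all 12 libraries took stage as a covariate or the interaction of stage and genotype. RPKM levels here are recovered counts over length and TMM-scaled library size, and CPM levels leave out the length. The scripts were tested on simulated data. Alternatives were DESeq2 1.42.0, limma 3.58.1, other scaling, filters and covariates, and leaving out each library. The length index as a covariate was added after seeing the data.

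Every member was named by role. Full values were given for members called between genotypes, the 5 largest log2 fold changes at each stage, the 5 highest in E12.5 controls, the 5 lowest p over both stages, and those called between stages. The members and lists were chosen with earlier results of these data known. Nothing says that replicates came from separate litters, so p-values measure the spread between these libraries. In the lists, 2 erythroid markers and 1 thin filament gene were not analysed here. In addition, 1 comparison list is not reported here.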

Additional observations from a re-analysis of the deposited data

How the results depend on the processing

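The count of members called at E11.5 was 0 under all 19 alternatives, and that of members whose mutant effect differed between stages was 0 under all 19. At E12.5 the 1 called member became 0 with a mean of at least 5 RPKM, with limma on log2(RPKM + 1), and with the length index as a covariate, with or without the fold threshold. It became 2 with no fold threshold. Over both stages 1 became 0 with a mean of at least 5 RPKM and with limma on log2(RPKM + 0.5) or log2(RPKM + 1), and 4 with the length index and no fold threshold. In controls across stages 2 became 1 with a mean of at least 5 RPKM or limma on log2(RPKM + 1). It became 0 with sex or the length index as a covariate, the latter also at any fold, and 5 with no fold threshold. In mutants across stages 2 became 1 with a mean of at least 5 RPKM. Myom2 fails the 5 RPKM filter, which accounts for its loss there. For the other settings the cause was not tested. Leaving out each library gave 0 to 2 members called at E12.5, 0 to 1 over both stages, 1 to 6 in controls across stages and 0 to 3 in mutants across stages.

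Some named values turned sign. With sex as a covariate Tcap at E11.5 was at 0.13 in place of -0.28. With the length index as a covariate Mybphl was at -0.01 in place of 0.42, Mybpc3 at 0.06, Actn2 at 0.01 and Ankrd1 at -0.06 at E12.5. Leaving out 1 library gave Csrp3 from -0.10 to 0.09 and Mybpc3 from -0.14 to 0.03. The E12.5 ratio of the summed level of the 36 genes, mutants to controls, was 0.948. It was 0.976 without Ttn and 0.95 without Tpm1, Mybpc3 and Ttn, the 3 most counted.

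Replicate numbers were not shown to pair samples. Same-numbered controls and mutants correlated at -0.0492, 0.44 and 0.298 at E11.5 and at 0.0248, 0.0597 and 0.00964 at E12.5. With the replicate block the counts of members called were 0 at E11.5, 1 at E12.5, 1 over both stages and 2 in controls across stages. The block left 1 of 2 in mutants across stages, where the adjusted p of Nrap was 0.109. With the block 96 genes in place of 14 were called at E11.5, and 26 in place of 64 in mutants across stages.

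With 3 libraries a group an exact test cannot go below p = 0.1, low-count members rest on few reads, and age, sex and length index are entangled in the stage comparison of controls. Sex also differed between the genotypes at E11.5, and the length index was higher on average in controls than in mutants at E12.5. Genotype cannot be told apart fully from them there.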
